A study of Homo sapiens with 8 samples.

Results

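The TGFBI locus is a stretch of 900 kb on the long arm of chromosome 5 (5q31, hg19 positions 134900001 to 135800000) that holds TGFBI and the neighbouring genes SLC25A48, IL9, LECT2, VTRNA2-1 and SMAD5. Its members are the deposited SON TSA-seq windows that lie wholly inside it, 227 of 835254 in all, of which 73 are 100 kb windows and 154 are 50 kb windows. The locus and its genes were chosen because SON signal there was known to be lower after drug treatment, so the values below describe that difference and do not test it. The 786-O line, derived from a human clear cell renal carcinoma, was given 2 µM PT2399, a small molecule that keeps HIF-2α from pairing with ARNT, or an equal volume of DMSO vehicle, each for 3 h. Cells of both groups grew in RPMI with serum under atmospheric oxygen and carry the same line background, and no untreated cells or other line were included, so 1 cell line stands for the tumour type. Each treatment has 2 SON pulldowns and 2 inputs, 8 libraries in all. In 4 of these 8 the title and the antibody or treatment entry name different groups, and the titles were used.

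TSA-seq with a SON antibody marks DNA by its nearness to nuclear speckles, bodies rich in splicing factors around which many active and gene-dense regions lie. SON is a core speckle protein, and a tyramide reaction at the antibody leaves biotin on surrounding DNA, which is then pulled down and sequenced. HIF-2α is the main driver transcription factor in clear cell renal carcinoma that has lost VHL, and it binds DNA with ARNT at short core motifs. TGFBI encodes a secreted matrix protein, induced by TGF-β, that binds collagens and integrins, and SMAD5 encodes a signal transducer of bone morphogenetic protein receptors. A bulk signal cannot tell a small shift in all cells from a larger one in some of them.

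Promoter bases are shown for the gene with the highest median SON signal and for the gene with the largest mean log2 drop at 50 kb. They are also shown for the 1 start, among those searched for the 6 genes, that holds a HIF core motif. They are the 250 bases before the transcription start, from RefSeq on GRCh38.p14, which is not the build of the windows. Of the 6 genes, 5 had a promoter in the table, and SLC25A48 had 2 starts there. Capitals mark ACGTG or GCGTG, searched on both strands.
TGFBI, chr5:136028738-136028987, plus strand: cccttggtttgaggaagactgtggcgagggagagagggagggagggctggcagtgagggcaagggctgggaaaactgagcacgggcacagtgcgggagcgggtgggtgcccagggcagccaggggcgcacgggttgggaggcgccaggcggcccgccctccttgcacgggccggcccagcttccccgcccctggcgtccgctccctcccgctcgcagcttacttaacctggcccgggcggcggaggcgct
LECT2, chr5:135954984-135955233, minus strand: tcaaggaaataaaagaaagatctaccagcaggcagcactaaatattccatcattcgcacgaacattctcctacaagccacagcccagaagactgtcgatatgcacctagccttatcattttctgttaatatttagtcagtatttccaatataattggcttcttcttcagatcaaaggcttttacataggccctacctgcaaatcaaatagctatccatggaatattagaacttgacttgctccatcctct
SLC25A48, chr5:135834413-135834662, plus strand: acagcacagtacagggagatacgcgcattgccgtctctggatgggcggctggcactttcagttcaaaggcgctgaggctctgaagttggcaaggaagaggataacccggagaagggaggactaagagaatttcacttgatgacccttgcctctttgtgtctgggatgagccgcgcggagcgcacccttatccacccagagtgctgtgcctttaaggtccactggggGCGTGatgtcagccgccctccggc

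The TGFBI promoter was 72.8% G and C with 20 CG dinucleotides, and that of LECT2 38.8% with 3, against medians of 58.0% and 11 over the 35116 promoters of the table. The SMAD5 promoter resembled that of TGFBI at 70.4% with 26 CG dinucleotides, and IL9 resembled LECT2 at 38.0% with 2. The single core in the 6 promoters searched, GCGTG in the SLC25A48 start shown, began 24 bases before the transcription start on the gene's own strand. Over all promoters of this length, 43.2% held at least 1 of these cores, 18.5% ACGTG and 32.2% GCGTG, and the TGFBI, LECT2, IL9 and SMAD5 windows held neither. A match describes letters and is no site of binding, and the absence of one concerns these 250 bases only.

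SON signal is given as log2 concentrations, the authors' 1 mean per treatment and window, in 9 offset sets for each window size, with steps of 10 kb at 100 kb and of 5 kb at 50 kb. Values of single libraries were not analysed here, which leaves no standard deviation or n and an unknown depth. Error is judged by the FDR given in the authors' deposited tables. Whether replicates came from separate cultures is not in the labels, so the spread behind the FDR may be technical. Windows count as measured when both log2 concentrations were at least 2. Over all 90286 measured 100 kb windows the median change, PT2399 minus DMSO, was -0.13, and the part of signal and of scaling in that general shift was not tested.

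SON signal was lower with PT2399 over the whole measured length of the locus at 100 kb. Of its 73 windows of that size, 58 were measured, and the change was below 0 in all 58, with a median of -1.08, quartiles of -1.73 and -0.77 and a range from -4.39 to -0.41. The median level was 7.81 with PT2399 and 8.89 with DMSO. In the authors' deposited tables, 20 of the 58 had an FDR of at most 0.01 and a lower signal, where 1.55% of all measured 100 kb windows did, and 0 were higher at that FDR, beside 0.0853%. Since the locus was chosen on this contrast, nothing is read from the difference between those shares. At 50 kb, 118 of 154 windows were measured, with a median change of -0.94, and 12 were lower at the same FDR in the authors' deposited tables, beside 0.357% of all measured 50 kb windows. None of the 118 was higher at that FDR in the authors' deposited tables, beside 0.0291% of all.

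**Figure D1:**
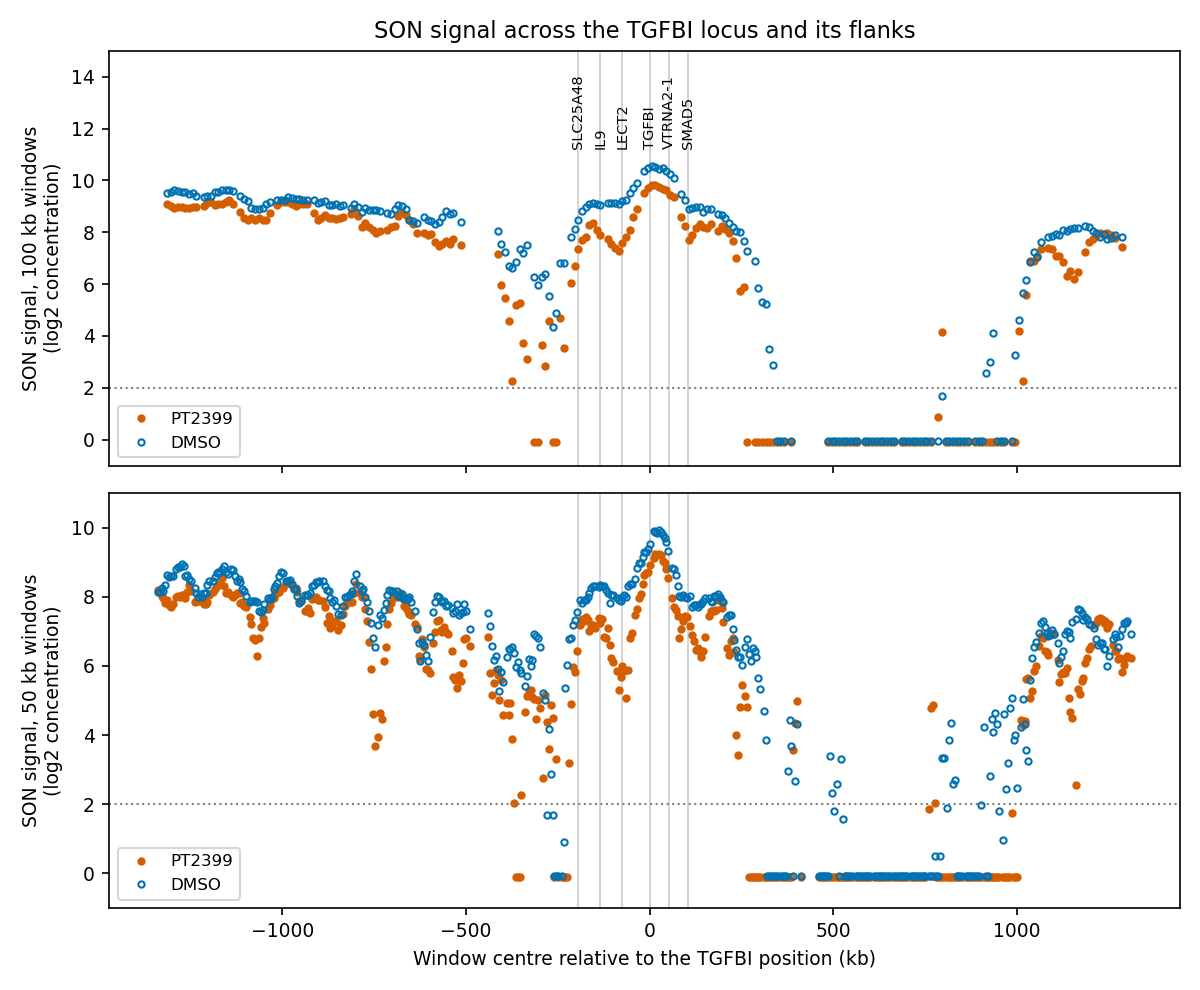
SON signal (log2 concentration) of the locus and its flanks in 100 kb windows (top) and 50 kb windows (bottom) by the distance of the window centre from the TGFBI position, with PT2399 as filled and DMSO as open points, gene positions as vertical lines and the minimum of 2 as a dotted line. Both treatments peak over TGFBI and VTRNA2-1, at 9.84 with PT2399 and 10.55 with DMSO in the 100 kb window of highest DMSO level, and both reach the floor on the SMAD5 side.

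The signal formed a hill with its top over TGFBI and VTRNA2-1, and at 100 kb every measured window of it was lower in level with PT2399. The 100 kb window with the highest DMSO level, at 135320001 to 135420000, stood at 9.84 with PT2399 and 10.55 with DMSO, a change of -0.71 at an FDR of 0.000163 in the authors' deposited table. The drop with the lowest FDR was not centred on TGFBI but on its LECT2 side. There, the window at 135260001 to 135360000 stood at 8.09 with PT2399 and 9.53 with DMSO, a change of -1.44, which left 36.9% of the signal. Its FDR was 3.27e-08 in the authors' deposited table. A standard error can be worked back from the authors' deposited fold and p-value, here called the implied standard error, and was 0.21, for a 95% interval of -1.85 to -1.03. This window ends 4 kb before the position given for TGFBI. It ranked 24 by FDR among all measured lower 100 kb windows. At 50 kb, the lowest FDR belonged to the window at 135305001 to 135355000, again between LECT2 and TGFBI, which stood at 7.64 with PT2399 and 8.82 with DMSO (change -1.18, implied standard error 0.22, FDR 8.14e-05 in the authors' deposited table).

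Called windows that overlapped merged into 1 main region of 400 kb at 100 kb resolution, from 135130001 to 135530000, built of 19 windows and covering all 6 gene positions. Not every window inside this region was called, and none of the 5 from 135200001 to 135340000 was. Among 353 merged lower regions of the genome, whose median length was 110 kb, the main region ranked 9 by length and 12 by number of windows. At 50 kb the main region was narrower, from 135290001 to 135425000, with 11 windows, and held the positions of TGFBI and VTRNA2-1. It begins 1 base after the rounded position of LECT2, which may therefore lie in it. It ranked 6 by length among 234 regions with a median of 55 kb. One further called 50 kb window, at 135235001 to 135285000, lay on the IL9 to LECT2 side (change -1.82, 6.23 with PT2399 and 8.05 with DMSO, FDR 0.00241 in the authors' deposited table). A separate called 100 kb window at 134980001 to 135080000, outside the main region, held none of the gene positions. It stood at 3.12 with PT2399 and 7.51 with DMSO, a change of -4.39 with an implied standard error of 0.94, and carried little signal with PT2399.

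**Figure D2:**
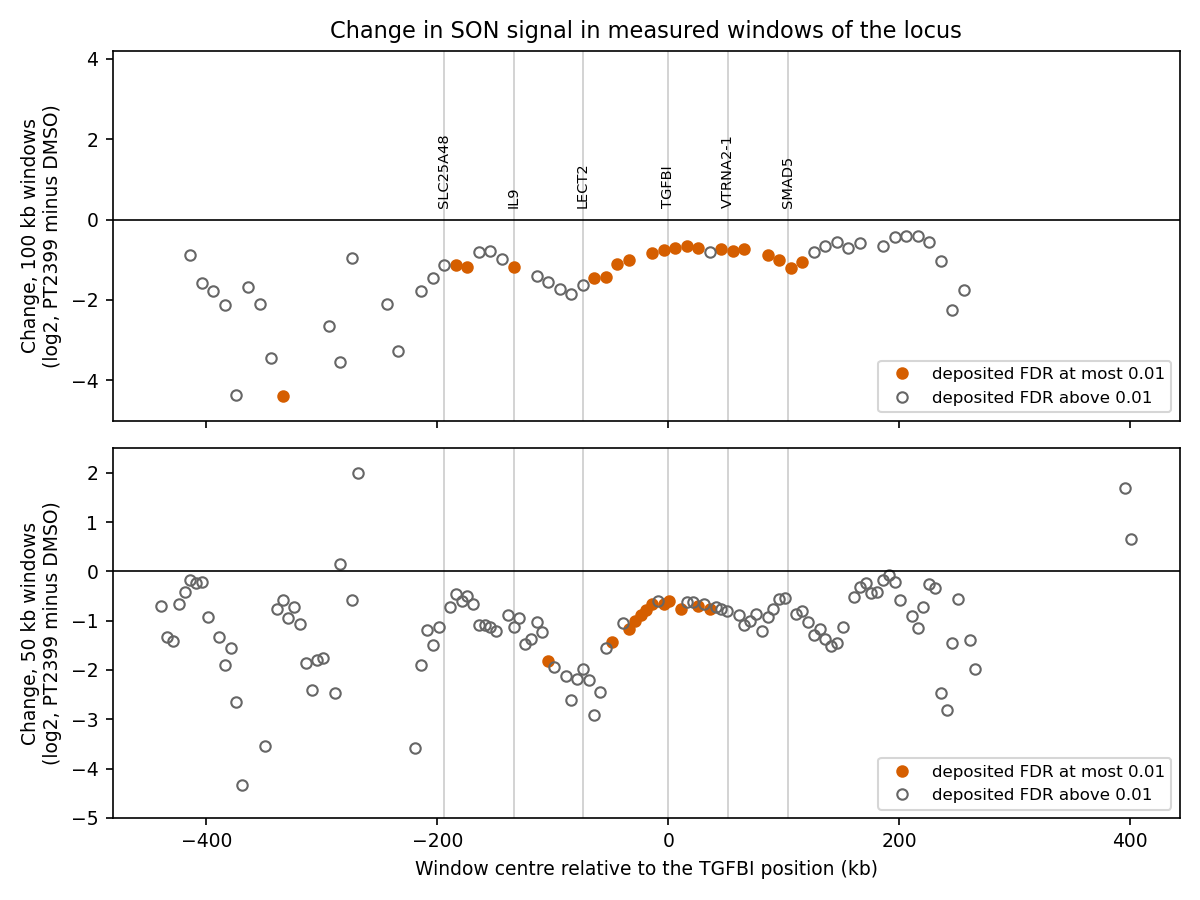
Change in SON signal (log2, PT2399 minus DMSO) in the measured windows of the locus, at 100 kb (top) and 50 kb (bottom), by distance from the TGFBI position, with windows at a deposited FDR of at most 0.01 filled. All 58 windows at 100 kb lie below 0, the called ones run across TGFBI, and the 50 kb calls end sooner on both sides.

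TGFBI lay at the high part of the hill in both treatments, and its mean log2 change was smaller in size than those at IL9 and LECT2. Each gene position lies in 9 windows of each size, which overlap and are no replicates. Over the 9 windows of 100 kb at TGFBI, the signal ran from 8.59 to 9.84 with PT2399 (median 9.65) and from 9.69 to 10.55 with DMSO (median 10.44). The highest PT2399 values overlap the lowest DMSO ones, because windows centred off the hill hold less signal in both treatments, while within every window PT2399 was lower. The mean change was -0.81, with a range of -1.10 to -0.66, and 8 of the 9 had an FDR of at most 0.01 in the authors' deposited tables. In the window centred nearest to the gene, 135310001 to 135410000, PT2399 gave 9.71 and DMSO 10.47, a change of -0.76 with an implied interval of -1.01 to -0.51, which left 59.0% of the signal, at an FDR of 3.66e-06 in the authors' deposited table. At 50 kb the mean change at TGFBI was -0.69, and 6 of 9 windows passed that FDR.

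SMAD5, the signal transducer downstream of TGFBI on the chromosome, lay on the falling side of the hill. Its 9 windows of 100 kb ran from 7.69 to 9.45 with PT2399 (median 8.24) and from 8.79 to 10.23 with DMSO (median 8.98). The mean change was -0.86 (range -1.20 to -0.57), and 6 of 9 windows passed an FDR of 0.01 in the authors' deposited tables. The windows that passed are the 6 reaching farthest towards TGFBI. The other 3, which begin at 135440001 or later, had changes from -0.81 to -0.57 and FDRs from 0.0515 to 0.248 in the authors' deposited tables. At 50 kb, 0 of the 9 SMAD5 windows passed, with a mean change of -0.89 and a lowest FDR of 0.0429.

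VTRNA2-1, also called nc886, is a short noncoding RNA made by RNA polymerase III that binds the kinase PKR. It lies close after TGFBI, and 5 of its 9 windows of 100 kb also hold the TGFBI position, the others that of SMAD5, while its 50 kb windows hold neither. Its 9 windows of 100 kb ran from 8.24 to 9.84 with PT2399 (median 9.62) and from 9.24 to 10.55 with DMSO (median 10.36). The mean change was -0.78 (range -1.0 to -0.66), and 8 of 9 windows passed that FDR in the authors' deposited tables, against 1 of 9 at 50 kb, where the mean change was -0.84.

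The secreted immune factors of the locus lay on the other side, with larger log2 changes and fewer calls. LECT2, a chemotaxin made mainly by the liver, had 7.26 to 8.88 with PT2399 (median 7.72) and 9.10 to 9.88 with DMSO (median 9.22) over its 9 windows of 100 kb. Its mean change was -1.46 (range -1.84 to -1.0), and 4 of 9 windows passed an FDR of 0.01 in the authors' deposited tables. At 50 kb its mean change was -2.22, from 5.07 to 6.82 with PT2399 and from 7.87 to 8.37 with DMSO, yet 0 of 9 windows passed and the lowest FDR was 0.0317 in the authors' deposited tables. The LECT2 position used here is rounded to 10 kb, and the count depends on that rounding. The next window, which starts 1 base after it at 135290001, stood at 6.95 with PT2399 and 8.38 with DMSO, a change of -1.43 at an FDR of 0.00618 in the authors' deposited table, and the authors' gene list for 50 kb windows holds LECT2. IL9, a cytokine of T cells and mast cells, had 7.39 to 8.34 with PT2399 (median 7.81) and 8.82 to 9.13 with DMSO (median 9.10) over its 9 windows of 100 kb. Its mean change was -1.20, 3 of 9 windows passed at 100 kb in the authors' deposited tables, and 0 of 9 passed at 50 kb.

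SLC25A48, a member of the mitochondrial carrier family, lay at the foot of the hill and had the widest range. Its 9 windows of 100 kb ran from 3.54 to 8.34 with PT2399 (median 7.36) and from 6.81 to 9.12 with DMSO (median 8.49). The mean change of -1.52 is pulled down by windows that reach into the low stretch before the position used for the gene. A change of -3.27 there came from a PT2399 level of 3.54. The other SLC25A48 promoter, at 135578922 to 135579171 on GRCh38, lies farther before that position, so the stretch may fall inside the gene. The window centred nearest to its position changed by -1.13 (implied interval -1.87 to -0.39), with an FDR of 0.0499 in the authors' deposited table. Of the 9 windows, 2 passed an FDR of 0.01 at 100 kb and 0 at 50 kb.

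**Figure D3:**
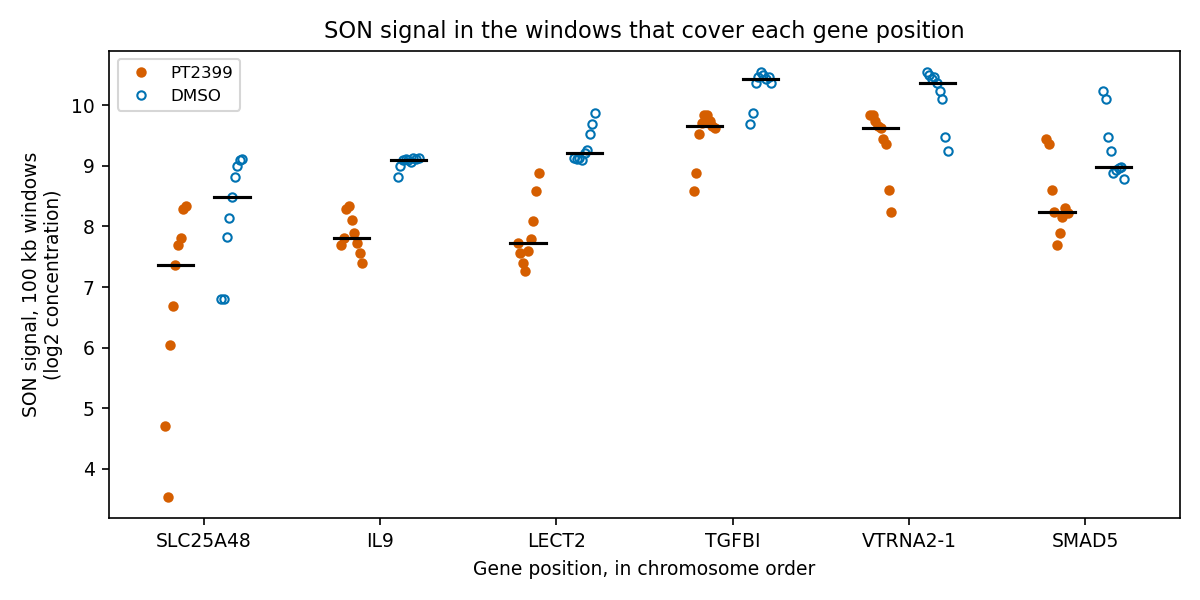
SON signal (log2 concentration) in the 9 overlapping 100 kb windows that cover each gene position, with PT2399 (filled) left of DMSO (open) and medians as bars. TGFBI and VTRNA2-1 have the highest medians in both treatments, and the windows of a gene are no replicates.

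Ordered by median DMSO level at 100 kb, the genes ran TGFBI (10.44), VTRNA2-1 (10.36), LECT2 (9.22), IL9 (9.10), SMAD5 (8.98) and SLC25A48 (8.49). With PT2399 the order was TGFBI (9.65), VTRNA2-1 (9.62), SMAD5 (8.24), IL9 (7.81), LECT2 (7.72) and SLC25A48 (7.36). At 100 kb, SMAD5 stood above IL9 and LECT2 with PT2399 and below them with DMSO. This crossing was not kept at 50 kb. There, with PT2399, the SMAD5 median was 7.08 and that of IL9 7.17, and with DMSO the SMAD5 and LECT2 medians were both 8.0. At 100 kb, the medians of TGFBI and VTRNA2-1 differ in either treatment by less than the spread of their own covering windows. The same holds at 100 kb for LECT2, IL9 and SMAD5. At 50 kb with PT2399, the LECT2 median of 5.85 lay below the lowest IL9 window, at 6.82. No spread between libraries is at hand to order the genes.

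On the linear scale the largest loss was at TGFBI itself. Linear concentrations of 50 kb windows add up to those of the 100 kb windows they fill, with a ratio between 0.981 and 1.15 for PT2399 and between 0.989 and 1.01 for DMSO in the 41 locus windows at levels of at least 7 and 8, so the loss can be placed at such levels. Without these minimum levels, the PT2399 ratio in the locus reached 6.06. The 18 adjoining 50 kb windows of the first set summed to 1976 with PT2399 and 3710 with DMSO, so that 53.3% remained. The window at 135350001 to 135400000, which holds the TGFBI position, stood at 560.3 with PT2399 and 948.8 with DMSO and made up 22.4% of the locus loss, beside 25.6% of its DMSO signal. The LECT2 window, at 135250001 to 135300000, stood at 57.7 with PT2399 and 250.7 with DMSO, which is 11.1% of the loss from 6.76% of the DMSO signal. The VTRNA2-1 window made up 12.2% of the loss, SMAD5 6.72%, IL9 8.20% and SLC25A48 5.45%. The LECT2 window thus kept 23.0% of its DMSO signal and the TGFBI window 59.0%. The implied standard error of the LECT2 log2 change is large, as given below, and the 2 shares were not tested against each other.

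**Figure D4:**
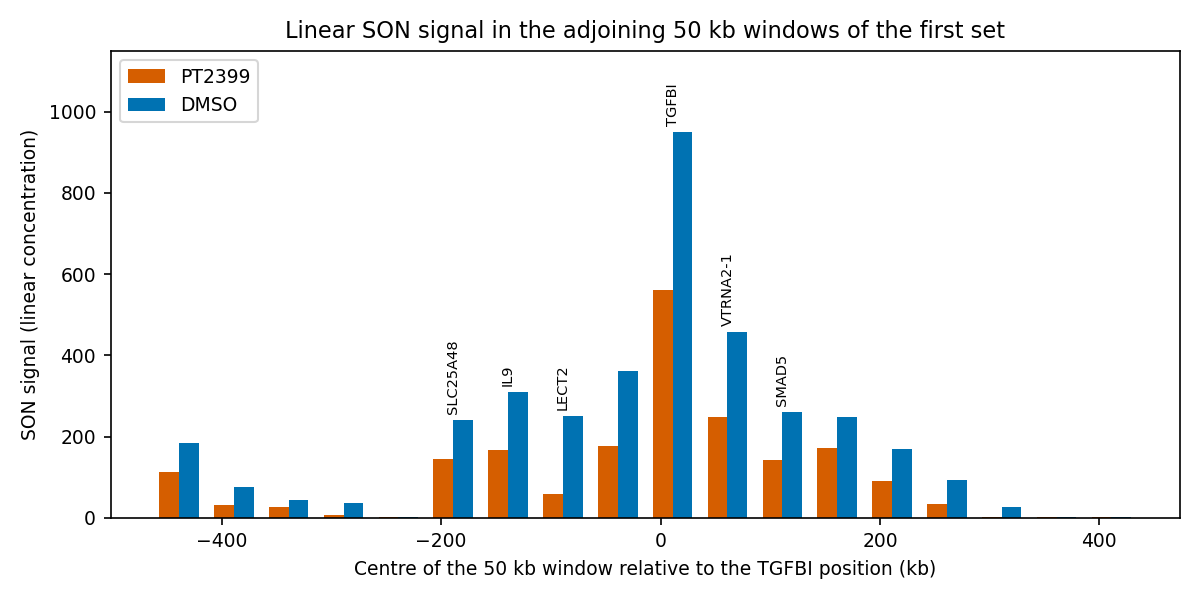
Linear SON concentration in the 18 adjoining 50 kb windows of the first set, by distance from the TGFBI position, with PT2399 left of DMSO in each pair and the genes whose positions fall in a window named above it. The TGFBI window is the tallest in both treatments, at 560.3 with PT2399 and 948.8 with DMSO, and the LECT2 window keeps the smallest share of its DMSO signal among the windows with a named gene.

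Calls inside the locus did not follow the size of the change alone. In the 5 windows of 100 kb from 135200001 to 135340000, which lie over IL9 and LECT2, signal ran from 7.26 to 7.72 with PT2399 and from 9.10 to 9.22 with DMSO. Their changes of -1.84 to -1.41 had FDRs of 0.145 to 0.505 in the authors' deposited tables, and the implied standard errors were 0.75 to 1.30. The next window, shifted by 10 kb to 135250001, had a change of -1.46 and an FDR of 5.12e-05. At 50 kb, the 8 windows from 135240001 to 135330000 had changes of -2.92 to -1.94, FDRs of 0.411 to 0.714 in the authors' deposited tables and implied standard errors of 1.82 to 2.18. At TGFBI itself the 100 kb window at 135350001 had a change of -0.81 and an FDR of 0.107, between neighbours at 135340001 and 135360001 with changes of -0.70 and -0.74 and FDRs of 0.00066 and 0.000872 in the authors' deposited tables. Neighbouring windows share most of their length, and what sets these errors apart was not tested, since the spread between libraries is not in the group means.

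**Figure D5:**
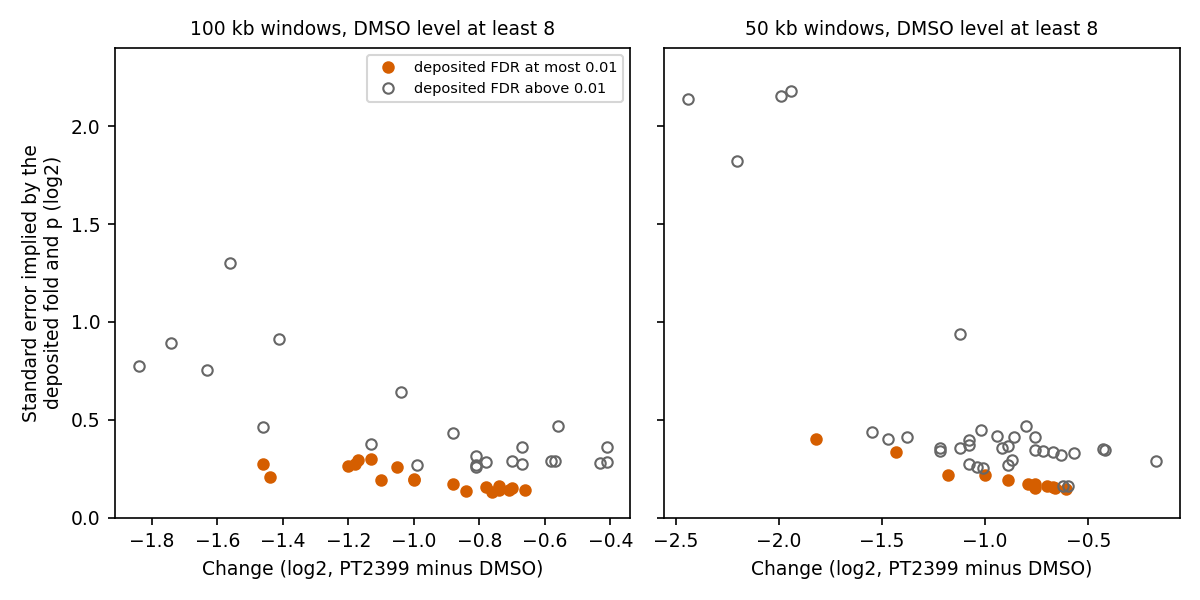
Implied standard error (log2), worked back from the authors' fold and p-value, against the change (log2, PT2399 minus DMSO) in measured locus windows with a DMSO level of at least 8, at 100 kb (left) and 50 kb (right), with windows at a deposited FDR of at most 0.01 filled. Among windows with a change of -1 or lower, the 10 called ones at 100 kb have implied errors of 0.19 to 0.30 and the 8 uncalled ones 0.38 to 1.30.

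Signal reached the floor of the tables, -0.11 for PT2399 and -0.07 for DMSO, at the SMAD5 end of the locus. In 100 kb windows PT2399 alone also reached it in a stretch before the SLC25A48 position. At 50 kb both treatments reached it in that stretch, as in the window at 135100001 to 135150000. Both were below 2 in 15 windows of 50 kb, of which 11 began after the SMAD5 position. The first 100 kb window of the locus, at 134900001 to 135000000, stood at 7.16 with PT2399 and 8.04 with DMSO. At 100 kb, 15 windows were not measured. In 4 of them both treatments were at the floor, and in 11 only PT2399 was, with DMSO between 2.87 and 7.26. The SMAD5 side held 7 of these 11, and the other 4 began between 135000001 and 135060001. On the SMAD5 side the window values thus reached the floor sooner with PT2399 than with DMSO. A 100 kb value at the floor does not show that signal was absent. The 100 kb window at 135600001 to 135700000 was at -0.11 with PT2399. The 50 kb window at 135600001 to 135650000 inside it stood at 5.14 with PT2399. The 100 kb window at 135580001 to 135680000 stood at -0.11 with PT2399 and 7.26 with DMSO. Of the 11, 2 were lower at an FDR of at most 0.01 in the authors' deposited tables, beside 0.614% of all 100 kb windows, measured or not. The 11 were picked for a PT2399 value at the floor and could not be higher, so nothing is read from these shares. A fold from the floor has no size that can be read, and none is given. The measured window nearest the minimum, at 134940001 to 135040000, stood at 2.25 with PT2399 and 6.62 with DMSO, and the first one outside it, at 135000001 to 135100000, at -0.11 with PT2399 and 6.27 with DMSO. At 50 kb, 4 of 118 measured windows had a change above 0, all at DMSO levels of at most 5.01 and with a lowest FDR of 0.695 in the authors' deposited tables. A further 4 windows of 50 kb had DMSO below 2 and PT2399 between 3.30 and 4.48, so they went the other way, and none of them passed that FDR. One is the window just outside the minimum at that size, 135060001 to 135110000, at 4.39 with PT2399 and 1.69 with DMSO.

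The chromosome around the locus was also lower with PT2399, by less. In the 900 kb on each side, 99 of 146 windows of 100 kb were measured, and their median change was -0.50, between -1.08 in the locus and -0.13 over all measured windows. Median DMSO levels were alike, 8.89 in the locus and 8.91 in the flanks, while the PT2399 medians were 7.81 and 8.47. The locus held more windows of low level, with a lower DMSO quartile of 7.86 against 8.22 in the flanks. Where both levels were at least 6, the median change was -0.88 in the locus and -0.495 in the flanks. On the side before the locus all 73 windows were measured and all had a change below 0, with a median of -0.50 and a range of -1.16 to -0.03. On the side after it, 26 of 73 were measured, with a median change of -0.44, and most of the rest lay at the floor. In the flanks, 3 measured 100 kb windows were lower at an FDR of 0.01 in the authors' deposited tables, or 3.03%, all on the side before the locus, the nearest in a region at 134200001 to 134310000 with a lowest change of -0.74. The first set of 100 kb windows kept 51.6% of the DMSO total in the locus, 71.9% in the flanks and 91.8% over all measured windows. At 50 kb the medians were -0.94 in the locus and -0.47 in the flanks, where 3 of 209 measured windows, or 1.44%, were lower at that FDR in the authors' deposited tables. These 3 all lay on the side after the locus, at 136500001 to 136560000, with a lowest change of -4.82. Measured 50 kb windows on that side had DMSO levels of at most 7.65, so a change of that size left little signal with PT2399. No test was made between overlapping windows.

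Set beside windows of like strength, the locus held changes from the low end of the genome. Of its 42 windows of 100 kb with a DMSO level of at least 8, all had changes between -1.84 and -0.41, with a median of -0.86. The median over the 55205 such windows of the genome was -0.14, and 36 of the 42 stood at or below its 5th percentile of -0.62. These ranks describe windows chosen for their drop.

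The genes compared with TGFBI for their function were not in the lists of genes at lower windows, apart from SMAD5. The authors' deposited gene list for 100 kb windows, with 1023 genes, held all 6 genes named for the locus. TGFBI, LECT2 and VTRNA2-1 were in the 50 kb list of 258. Of 32 genes of the TGF-β and bone morphogenetic protein pathways, 2 were in the 100 kb list, TGFBI and SMAD5, and 1 in the 50 kb list, TGFBI. Both are members of the locus, so 0 of the other 30 ligands, receptors, latent binding proteins, SMADs and regulators were listed, among them TGFB1, the ligand, and TGFBR1 and TGFBR2, its receptors. Of 13 genes with fasciclin domains or of integrins and their matrix ligands, TGFBI was the single one listed at either size. POSTN, which encodes periostin, the closest relative of TGFBI, was not listed. Over the 20052 protein-coding genes of the RefSeq table, 4.27% were in the 100 kb list and 1.10% in the 50 kb list. At those shares, lists as short as these would hold few such genes or none. Nothing is therefore read from the absence of the other genes.

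Some genes around these members were listed too. Among the 25 protein-coding genes from the tenth before SLC25A48 to the tenth after SMAD5 on GRCh38, used for order only, the authors' deposited list for 100 kb windows held 11. That is 44.0%, beside 4.27% of all protein-coding genes. Members chosen for their drop are among the 11, and 6 are not members, so nothing is read from the difference. Beside the 5 protein-coding members, the listed genes were TXNDC15, PCBD2 and CATSPER3 before the locus and SPOCK1, KLHL3 and HNRNPA0 after it. CATSPER3 encodes a sperm calcium channel subunit, SPOCK1 a matrix proteoglycan and HNRNPA0 an RNA-binding protein. In gene order the direct neighbours, CXCL14, a chemokine, before SLC25A48 and SMIM32 after SMAD5, were in neither list. TRPC7, a calcium channel, was in neither list as well. Gene order alone does not say whether these unlisted genes lie inside the 900 kb. KLHL3 and HNRNPA0 were also in the 50 kb list.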

How the data were processed

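Per the submitters' processing notes, the authors used Bowtie2, Picard, DiffBind and bedtools on hg19. For the use of inputs, read counting and library scaling, the setting is not given in the sources used. Each deposited table holds, per the file headers, log2 concentrations per window, 1 mean each for control (read here as DMSO) and treatment (PT2399), a log2 fold, a p-value and an FDR. The deposited fold equals DMSO minus PT2399 to within 0.01, and changes here are PT2399 minus DMSO.

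Windows lying within the locus and within 900 kb on either side were taken from all deposited tables. Gene positions are 1 point per gene as supplied with the choice of the locus. The test is the authors' FDR at a maximum of 0.01, since the unit allows no count test. The implied standard error is the absolute fold over the normal quantile of its p, and its 95% interval uses 1.96 of them. Folds under 0.1 or p of 0.5 or more were given the median error of their bin among 20 bins of concentration. Recentring subtracted the median change of the measured windows of a set (about -0.13 at 100 kb) and adjusted new normal p-values by Benjamini-Hochberg. It was tested on simulated data. Older symbols were updated through RefSeq, where 982 of 1023 and 251 of 258 listed genes matched.

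The genes named are the 6 of the locus, listed members of the lists, and direct neighbours. A few further genes of the lists that were not in the deposited lists were named after seeing this. The locus, its genes and all lists were chosen with earlier results of these data known. Alternatives covered thresholds, minimum level, recentring, window size, sets and flank width. Python 3.11.15 was used with matplotlib 3.10.9, scipy 1.17.1, pandas 2.3.3 and numpy 2.4.6.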

Additional observations from a re-analysis of the deposited data

How the results depend on the processing

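The count of lower 100 kb windows in the locus, 20, became 10 after recentring with implied errors, all of them among the 20, and 2 in the first set alone, which has 6 measured locus windows. The 50 kb count, 12, became 23 at an FDR of 0.05, 2 at 0.001, 1 after recentring and 1 in the first set alone. Fewer windows were tested in a single set, and recentring removes the general shift; for the thresholds the cause is the threshold itself. Taking the window of largest change in place of that of lowest FDR moved the change to -4.39 at 100 kb and -4.34 at 50 kb, both at low PT2399 levels. The other 30 alternatives for the 6 main results kept the direction, and counts stayed within 1.5 times. Over them, the locus minus flank difference ran from -0.83 to -0.39 at 100 kb and from -0.64 to -0.39 at 50 kb. The -0.83 is a difference of means, used in place of medians in 1 alternative at each size. Of 18 alternatives for single genes, 0 reversed the direction and 3 moved the size of the change. The nearest window moved SLC25A48 from -1.52 to -1.13 and SMAD5 from -0.86 to -1.2. Windows of 50 kb moved LECT2 from -1.46 to -2.22. No paired analysis was possible because the tables hold group means and no value per library, and for the same reason no library could be left out.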

Other observations

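After recentring on the general shift, 10 windows of 100 kb in the locus stayed below an adjusted p of 0.01 computed from the implied error, and all 10 were among the 20 called as deposited. Of these, 1 was the separate window at 134980001 and the other 9 lay between 135250001 and 135510000, over LECT2, TGFBI, VTRNA2-1 and SMAD5. At 50 kb the single window was that at 135305001 to 135355000, between LECT2 and TGFBI, with a recentred change of -1.06. The 100 kb window centred nearest to TGFBI had a recentred change of -0.63, and the one nearest to SMAD5 had -1.08 and was not among the 10.

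On the side before the locus, the 100 kb window at 134760001 to 134860000 stood at 7.66 with PT2399 and 8.82 with DMSO. Its change was -1.16, at an FDR of 0.0103 in the authors' deposited table, just outside the threshold of 0.01.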
